A study of Drosophila melanogaster with 4 samples.

Results

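The data described are clusters of H4K20me1, a monomethylated form of histone H4, along the X chromosome of Drosophila melanogaster. They were chosen by position alone. Every cluster on sequence X in the list of either ChIP replicate was taken, which gave 1316 of 6426 clusters in replicate 1 and 1322 of 6799 in replicate 2. The bases found in both lists formed 1251 separate stretches on X, out of 6711 in the whole genome. The separate scaffold XHet, which carried 1 cluster in each list, was not counted as X.

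The material was nuclei from heads of adult flies of Oregon-R (modENCODE), a strain of wild-type genotype, and their stage was labelled Mixed Adult. The ChIP group had 2 libraries, made with the 3rd lot of the antibody, and the Input group had 2 libraries of chromatin without immunoprecipitation. All 4 libraries share strain, genotype and tissue, and no sex or age is given. Inputs entered only through the authors' calls, each of which used the input of the same number. The labels do not say that the replicates came from separate collections of flies, so their spread may be technical. Heads hold many cell types together, and a cluster list holds no expression that could check the label. Positions are on FlyBase release 5 with the first base numbered 1, as deposited, and read depth is not known.

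H4K20me1 is placed by the methyltransferase PR-Set7 (also called Set8) and is the substrate from which the di- and trimethylated forms of the same lysine are made. In mammals the mark is enriched on the inactive X of females. In Caenorhabditis elegans it is enriched on the X chromosomes of hermaphrodites, where the demethylase DPY-21 takes part in dosage compensation. In Drosophila the male X is compensated by another route, the MSL complex, which places the acetyl mark H4K16ac. These are background facts, and neither sex nor the MSL complex was measured here.

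H4K20me1 on X took the form of many short stretches and a few long ones. The 1251 stretches summed to 3.62 Mb, or 16.2% of the 22422827 bp of X. The median stretch was 2100 bp long, and the middle 50% ran between 1466.5 and 3285 bp. The shortest stretch was 2 bp and the longest 40579 bp. Stretches under 2 kb were the most frequent class, with 587 members (46.9%), yet held 20.9% of the marked length. The 130 stretches of 5 to 10 kb held 24.3% of it, and the 30 stretches of 10 kb or more held 13.3%. The longest 266 stretches, 21.3% of all, held 50% of the marked length. Of the 1251, 628 (50.2%) came from 1 cluster of each list that met no further stretch, and the others came from clusters that were split or joined differently in the 2 lists. Stretches under 500 bp numbered 78.

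The marked share of X varied strongly from one window to the next, with no steady trend along the arm. Over 44 full windows of 500 kb the share found in both lists averaged 16.4% ± 7.26 (SD), with a lowest of 3.08%, a median of 16.2% and a highest of 27.3%. In 16 windows at least 20% was marked, and in 9 windows less than 10%. Neighbouring windows differed by a median of 7.51 percentage points, and 19 of 43 steps were of 10 points or more. The correlation of a window with the next one was r = -0.16 on X and ran from 0.06 on 2R to 0.26 on 2L among the autosomal arms. A window's share thus said little about that of its neighbour at this scale. Windows share libraries and base composition and are not replicates, so no p is given.

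The 3 windows richest in the mark lay in the middle and on the centromere side of X. The highest was 12000001 to 12500000, with 36.3% marked in replicate 1, 29.6% in replicate 2 and 27.3% in both. The window from 17500001 to 18000000 had 40.2%, 31.8% and 26.6%, and that from 15500001 to 16000000 had 31.0%, 34.6% and 26.4%. The window with the least mark was 20500001 to 21000000, with 8.43%, 5.84% and 3.08%. It was followed by 21500001 to 22000000 (5.58%, 5.69% and 3.55%) and by 7000001 to 7500000 (9.52%, 6.36% and 5.05%). Both replicates gave each of the 3 poor windows less than 10% and each of the 3 rich ones 29.6% or more. The windows were ranked by the share in both lists, so neither replicate could fall below 26.4% in the rich ones. In the 2 replicates the profile of X was closely alike, with r = 0.949 and Spearman's rho = 0.943 over the 44 windows. On the autosomal arms r was higher, from 0.970 on 2L to 0.988 on 2R, and rho ran from 0.943 on 2L to 0.984 on 2R. These differences were not tested.

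**Figure D1:**
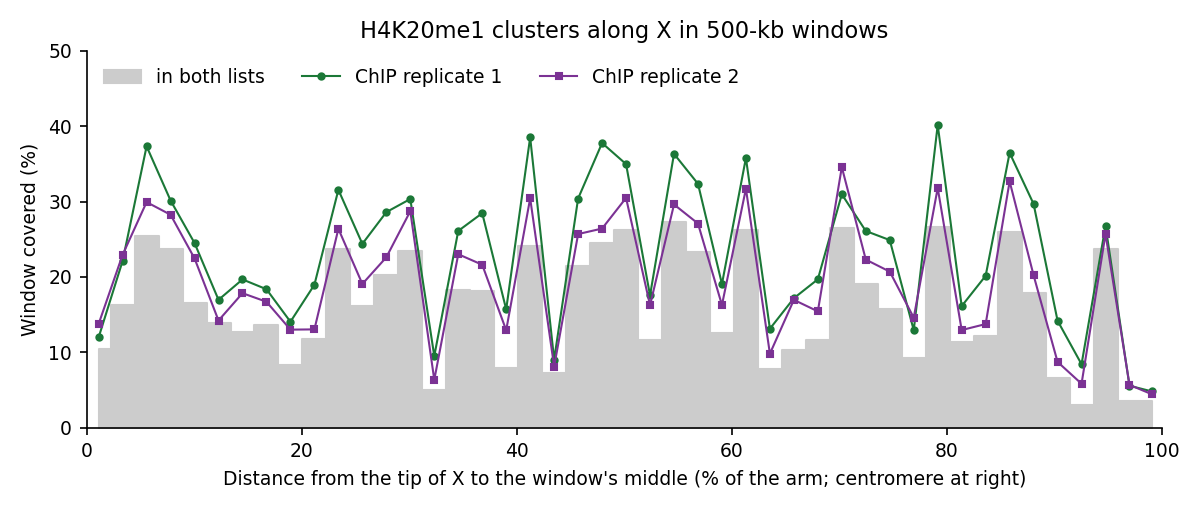
Share of each 500-kb window of X covered by clusters (%), against distance from the tip as a share of the arm, for ChIP replicate 1, ChIP replicate 2 and the sequence in both lists; the last window is shorter. The share varies from window to window, the sequence in both lists reaches at most 27.3%, and an isolated rich window stands among poor ones near the centromere end.

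With X divided into 3 equal parts, these differed less than single windows did. The part at the tip was marked over 16.1% in both lists, the middle part over 17.6% and the part next to the centromere over 14.7%. Their stretches numbered 411, 458 and 382, and the median lengths were nearly equal at 2091, 2095 and 2130 bp. The SD between windows within a part ran from 6.15 to 8.30 points, which is more than any difference between the parts. That SD describes single windows and is not the spread of a part's mean, so it does not show that the parts are alike. The lower value next to the centromere rested on the last 2 Mb, where 8.34% was marked. Without these 2 Mb the same part stood at 17.1%, which was above the rest of X by 0.217 points.

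The last 2 Mb held a block of dense mark, with both marked and empty windows around it. From 21075174 to 21152191, a span of 77018 bp, 6 stretches marked 93.1% of the sequence in both lists. The 100-kb window from 21100001 to 21200000 was marked over 61.6% in replicate 1 and 63.9% in replicate 2. The next window, from 21200001 to 21300000, was marked over 41.6% and 40.4%. Before the block, the window from 20900001 to 21000000 had 15.0% and 13.3%, and that from 20700001 to 20800000 had 20.6% and 14.3%. The windows from 21300001 to 21400000 and from 20500001 to 20600000 held no cluster in either list. The longest X cluster of replicate 2, 52545 bp from 21099747 to 21152291, lay in this block. Replicate 1 divided the same bases among 4 clusters, which covered 97.4% of it. At the other end of the chromosome the first 500 kb had 12 stretches and 10.5% marked. The first cluster began 166371 bp from the start of the sequence in replicate 1 and 24781 bp from it in replicate 2.

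Among the longest stretches on X, length did not go with the highest scores. The longest in both lists ran from 2528172 to 2568750 (40579 bp). Its score, a value from the authors' caller whose scale is not stated, was 2.01 in replicate 1 and 1.66 in replicate 2, which ranked 30th and 32nd among the X clusters of each list. The second ran from 13791978 to 13825043 (33066 bp) with scores of 1.52 and 1.39. The third ran from 17862134 to 17885396 (23263 bp) with scores of 1.32 and 1.36. The fourth, from 3190092 to 3211678 (21587 bp), had scores of 1.24 and 1.15 and stood 308th and 373rd in rank. These 4 were bounded by replicate 2, whose cluster equalled the stretch, while the replicate 1 clusters around them were 50892, 37879, 39452 and 30295 bp long.

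The next in length were 2 stretches near the tip, from 425897 to 446414 (20518 bp; scores 1.78 and 1.68) and from 1308089 to 1328506 (20418 bp; 1.64 and 1.66). The seventh and eighth, of 19277 and 18552 bp, were neighbours 641 bp apart in the block near the centromere, and 1 cluster of replicate 1 spanned both. Long stretches were found from end to end of X, at 1.95% to 94.1% of its length.

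Of the 5 longest clusters of replicate 1 on X, 3 were broken into many in replicate 2 and 2 were not. A cluster of 86303 bp from 12097775 to 12184077 (score 1.31) met 11 clusters of replicate 2, which covered 87.6% of it and scored between 0.689 and 1.39. The cluster from 5059869 to 5120598 (60730 bp; 1.44) met 12 clusters covering 84.5%, and that from 1467611 to 1513124 (45514 bp; 1.42) met 13 clusters covering 76.4%. These 3 domains therefore enter the sequence common to both lists as chains of stretches, with most of their bases marked in both replicates. The other 2, of 50892 and 39452 bp, met 2 and 3 clusters of replicate 2, which covered 97.8% and 91.2% of them. Of the 5 longest X clusters of replicate 2, 4 met a single cluster of replicate 1 that covered all of their bases, and the exception was the block near the centromere.

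The 8 strongest regions on X were longer than most stretches and were spread along the arm. By length they ranked from 12th to 211th among the 1251 stretches of X. Those at 12th, 31st, 76th and 80th were within the longest 10%, which numbered 125. All 8 were longer than 3285 bp, the upper end of the middle 50% of X stretches. They were ranked by the lower of their scores among clusters that overlapped each other by at least 50% of both. The first ran from 19624636 to 19628859 (4224 bp) and scored 2.21 in replicate 1 and 2.08 in replicate 2. The second, from 6577806 to 6582326 (4521 bp), scored 2.03 and 2.00. The third, from 15721726 to 15728702 (6977 bp), scored 1.92 and 2.28, the highest score on X in replicate 2. The fourth lay less than 50 kb farther on, from 15770635 to 15780601 (9967 bp), with 2.18 and 1.91, in the richest window but 2.

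The remaining 4 were 6259876 to 6265064 (1.90 and 1.98), 16268340 to 16275481 (1.90 and 1.86), 1970861 to 1987165 (2.20 and 1.85) and 18274933 to 18279744 (1.80 and 1.89). Of the 8, only 1, of 16305 bp, was longer than 10 kb, and no region was among the 8 longest stretches. The 8 held ranks 1 to 12 by score in replicate 2 and ranks 11 to 57 in replicate 1, where high scores were more frequent and the highest X score was 2.77, so ranking by the lower score favours regions high in replicate 2. Strength and length overlapped in each list but also picked out different clusters. Of the top 10% by score, 42 of 132 (31.8%) were also in the top 10% by length in replicate 1 and 52 of 132 (39.4%) in replicate 2. Over all X clusters that share is 10% by construction. In the same top 10% by score, 10 and 13 clusters were shorter than 3 kb. Of all X clusters, 30.2% were under 2 kb and 26.8% at 2 to 3 kb in replicate 1. In replicate 2 these shares were 34.3% and 29.7%, so short clusters were rarer among the strongest than among all.

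Median scores on X climbed from each length class to the next. Spearman's rho of score with length was 0.69 over 1316 clusters in replicate 1 and 0.64 over 1322 in replicate 2. On the autosomal arms rho ran from 0.77 to 0.79 in replicate 1 and from 0.76 to 0.79 in replicate 2. In replicate 1 the median score on X was 0.692 under 2 kb, 0.910 at 2 to 3 kb, 1.06 at 3 to 5 kb, 1.28 at 5 to 10 kb and 1.40 at 10 kb or more. In replicate 2 the same classes had medians of 0.817, 1.00, 1.13, 1.25 and 1.39. Within classes the relation was strongest at 2 to 3 kb (rho 0.41 in both lists). Under 2 kb rho was -0.04 in replicate 1 and 0.03 in replicate 2, so length did not order the scores of the shortest clusters. It ordered them weakly in the longer classes too. At 3 to 5 kb, 5 to 10 kb and 10 kb or more, rho was 0.06, 0.15 and 0.10 in replicate 1. In replicate 2 it was 0.21, 0.16 and 0.28. Clusters are not replicates, and these correlations carry no p.

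Short X clusters scored higher than short autosomal ones, and the gap closed with length. Under 2 kb the median was 0.692 on X against 0.503 on 2L, 2R, 3L and 3R together in replicate 1, and 0.817 against 0.703 in replicate 2. At 2 to 3 kb the medians were 0.910 on X and 0.718 on the autosomal arms in replicate 1, and 1.00 and 0.853 in replicate 2. At 5 to 10 kb they stood at 1.28 and 1.26 in replicate 1, and at 1.25 and 1.25 in replicate 2. At 10 kb or more X was lower, at 1.40 against 1.49 in replicate 1 and 1.39 against 1.47 in replicate 2. The scores of X were also more tightly spread, with an SD of 0.371 against 0.504 in replicate 1 and 0.269 against 0.383 in replicate 2. Both tails were thin on X. Scores under 0.5 made up 2.51% of X clusters and 12.5% of autosomal ones in replicate 1, and scores of 2 or more made up 2.36% and 4.80%. In replicate 2 the shares were 1.06% and 2.25% for scores under 0.5, and 0.151% (2 clusters) and 2.05% for scores of 2 or more. These differences between arms were not tested.

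**Figure D2:**
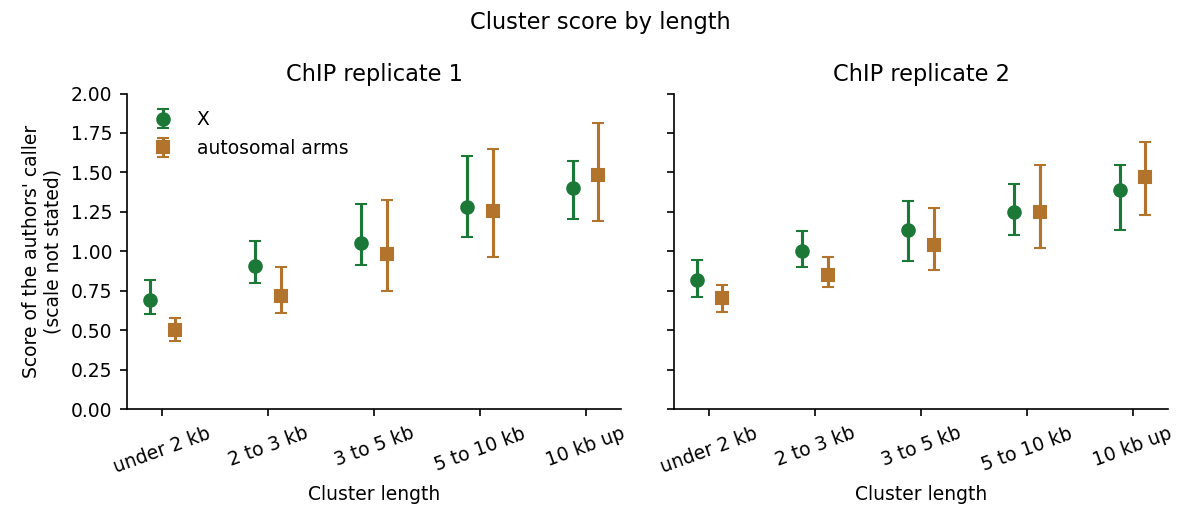
Median cluster score (points) with the 25th and 75th percentiles (bars) by cluster length for X (left in each pair) and for 2L, 2R, 3L and 3R together, in ChIP replicate 1 and ChIP replicate 2. Short X clusters lie above short autosomal ones (0.692 against 0.503 and 0.817 against 0.703 under 2 kb), and at 5 to 10 kb the medians nearly coincide.

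Gaps between marked stretches on X were mostly short, while a small number of long gaps held much of the sequence without a stretch. No genome sequence was used, so whether reads could be placed within a gap is not known. The 1250 gaps had a median of 2644 bp, and the middle 50% lay between 757.25 and 10155 bp. Gaps of 20 kb or more numbered 195 (15.6%) and held 77.6% of the unmarked sequence. There were 96 gaps of 50 kb or more, which took up 50.9% of X, and 46 of 100 kb or more, which took up 35.1%. On the autosomal arms the median gap was 2217.5 bp, and gaps of 50 kb or more took up 42.7% of the sequence, from 35.9% on 2R to 47.5% on 2L. When bases in either list counted as marked, 80 gaps of 50 kb or more were left on X and took up 39.4% of it, against 35.8% of the autosomal arms and 39.8% of 2L. The arms overlap in this measure, and X stood within the range of the autosomal arms. With the upper 50% of each list by score alone, the median gap widened to 12278.5 bp.

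**Figure D3:**
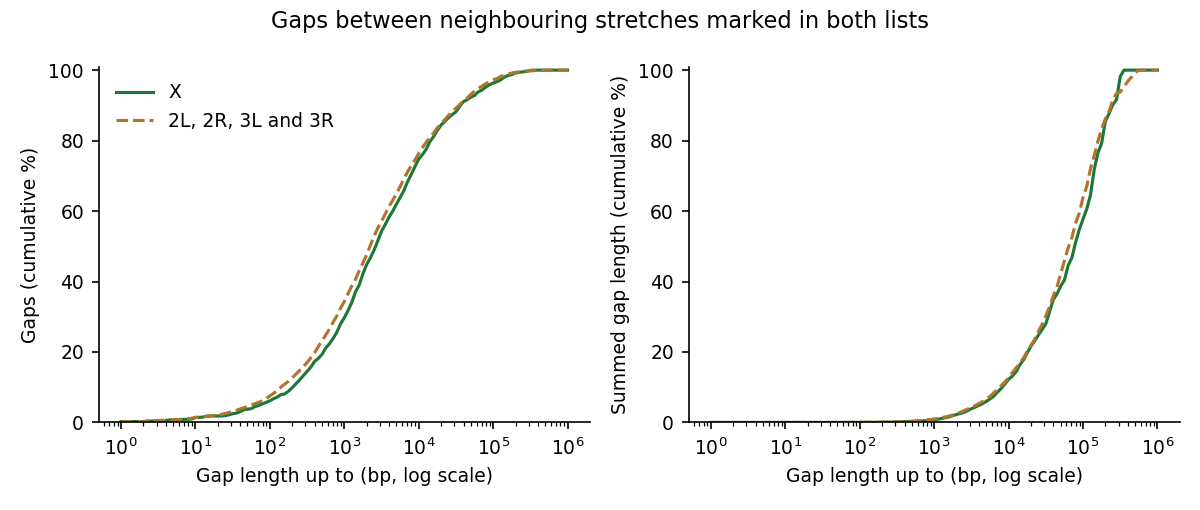
Cumulative share (%) of gaps between stretches found in both lists, and of their summed length, up to a given gap length in bp on a log axis, for X (solid) and for 2L, 2R, 3L and 3R together (dashed). The curves of gap number lie close, with 29.7% of the gaps on X and 34.3% of those on the autosomal arms under 1 kb. The curves of summed length part at long gaps and cross. Gaps up to 100 kb hold 57.7% of that length on X and 63.8% on the autosomal arms, and gaps up to 316228 bp hold 98.1% and 93.8%.

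The longest gaps, counted over both lists together, were placed unevenly. The first ran from 21501481 to 21845842 (344362 bp) on the centromere side. The second was near the tip, from 2683474 to 2994747 (311274 bp). The third and the fifth, from 20396463 to 20684498 (288036 bp) and from 21942697 to 22212380 (269684 bp), were also near the centromere end. The fourth ran from 7218193 to 7502226 (284034 bp). In the replicate-set list, the third list of the authors, the first and the fourth held no cluster and the others held at most 1023 bp of such clusters. In the last 2 Mb gaps of 50 kb or more took up 71.8% of the sequence, and without it the centromere-side part of X was at 32.4%, against 41.5% in the part at the tip and 33.6% in the middle part.

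Stretches on X clumped at short range, and the lists often disagreed on whether neighbours were joined. Of the 1250 gaps, 371 (29.7%) were under 1 kb. Of these, a replicate 1 cluster bridged 206 and a replicate 2 cluster 100, and no single cluster bridged the other 65 (17.5%). Most gaps under 1 kb were therefore places where 1 list was continuous and the other was not, more often with replicate 1 as the continuous one. Of the 402 gaps of 1 to 5 kb, no single cluster bridged 310 (77.1%). A gap without a bridge can still hold bases marked in 1 list only. Stretches chained by gaps under 5 kb formed 478 clumps on X, of which 204 were single stretches. The 71 clumps of 5 or more held 40.1% of the stretches and 43.7% of the marked length. On the autosomal arms such clumps held from 37.8% of the stretches on 3L to 51.0% on 3R, so X lay within their range.

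Of the 4 clumps on X with the most stretches that are named, 2 lay next to each other. A clump of 14 stretches from 4997305 to 5051314 spanned 54010 bp, with 66.3% marked in both lists. The clump after it, from 5060870 to 5123771 (62902 bp), had 13 stretches and 84.3% marked. Another clump of 13 stretches ran from 1468837 to 1512933 (44097 bp), with 78.8% marked. By span, the first was 12099095 to 12187915, with 88821 bp, 13 stretches and 87.3% marked, in the richest window of X. Stretches in clumps of 5 or more had a median length of 2211.5 bp and single stretches one of 2011.5 bp. Of the 30 stretches of 10 kb or more, 19 were in clumps of 5 or more and 1 stood alone. Median scores of stretches in clumps of 5 or more and of single stretches were 1.06 and 0.970 in replicate 1, and 1.01 and 1.02 in replicate 2. Each stretch takes the score of its cluster in that list. A cluster broken into several stretches therefore counts several times in these medians, and they are not medians over clusters. Over 500-kb windows the number of stretches ran between 7 and 51, and its variance was 5.00 times its mean, against 4.33 on 3R to 5.29 on 2R.

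Long marked blocks on X became more numerous once close stretches were joined, and how far they stayed below the autosomal arms depended on the list and on the joining. Before joining, blocks of 10 kb or more in both lists numbered 30 on X (1.34 per Mb) and 5.29 per Mb on the autosomal arms. Without replicate 2, the list of replicate 1 had 64 on X (2.85 per Mb) and 6.68 per Mb on the autosomal arms, and without replicate 1 that of replicate 2 had 33 on X (1.47 per Mb) and 7.17 per Mb. With stretches under 1 kb apart joined, there were 3.17 per Mb on X (71 blocks) and 7.51 per Mb on the autosomal arms. With those under 5 kb apart joined, there were 7.05 per Mb on X (158 blocks) and 9.25 per Mb on the autosomal arms. The marked bases in such blocks then made up 11.6% of X, against 21.2% on the autosomes. The joined blocks reached 88821 bp on X and 156201 bp on 3R. Autosomal arms taken singly had from 8.43 to 10.3 blocks per Mb under the last rule, all above X. In single lists joined under 5 kb, replicate 1 had 9.54 per Mb on X and 9.57 on the autosomal arms, nearly the same, and replicate 2 had 8.56 and 10.1.

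Replicate 1 marked more of X than replicate 2 in most windows, and on the autosomal arms it marked less in most. In 39 of 44 windows on X replicate 1 had the higher coverage, by a mean of 3.55 ± 3.06 percentage points (SD over windows) and a range of -3.60 to 11.3. On the autosomal arms replicate 1 was higher in 66 of 192 windows, and the mean difference was -1.15 ± 2.55 points. Single arms gave -2.19 on 2L, -0.788 on 2R, -0.906 on 3L and -0.767 on 3R. The excess on X was highest at 10500001 to 11000000, with 37.8% in replicate 1 and 26.4% in replicate 2. Of the 5 windows with the opposite order, 2 were the ones nearest the tip, and the clearest was 15500001 to 16000000, with 31.0% and 34.6%. In the upper 50% of each arm's clusters by score the mean difference was 3.34 points on X and between -1.93 and -0.564 on the other arms. Each replicate was called against its own input, and what the ChIP and the input contribute to this difference cannot be told apart.

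**Figure D4:**
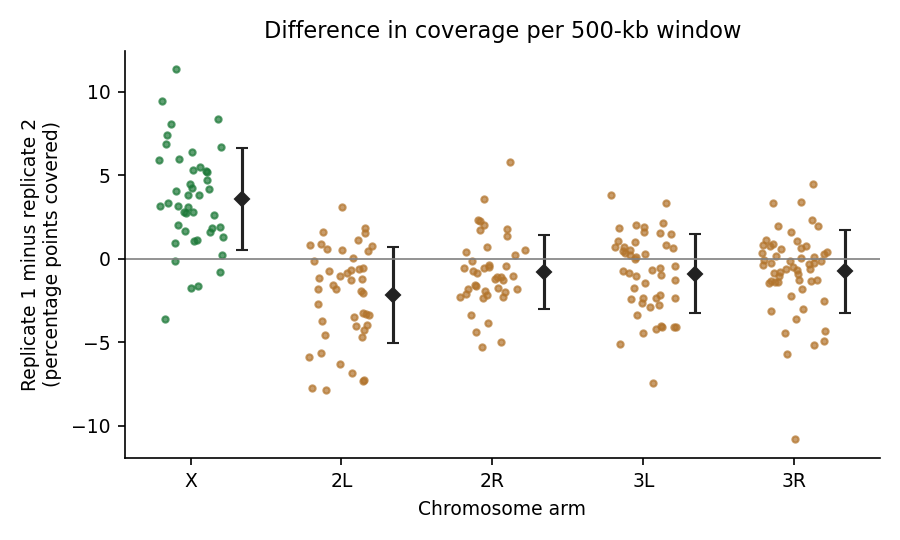
Coverage in replicate 1 minus coverage in replicate 2 (percentage points) in each 500-kb window (dots) by chromosome arm, with the mean and SD over windows (diamonds and bars). On X 39 of 44 windows lie above 0, while 66 of 192 do on the 4 autosomal arms.

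Clusters that matched each other on X were more often longer in replicate 1, while neither replicate had the higher score in a clear majority. Over 906 pairs that were each other's best overlap, replicate 1 was longer in 64.2%, with a median ratio of lengths of 1.13. On the autosomal arms it was longer in 42.5% (2L) to 54.3% (3L) of pairs, and the ratios ran from 0.962 to 1.02. The median lengths on X were 3252.5 bp in replicate 1 and 2740 bp in replicate 2. The score was higher in replicate 1 in 48.0% of the X pairs and in 34.1% to 43.3% of pairs on the autosomal arms. Replicate 1 clusters that met 2 or more clusters of replicate 2 numbered 188 on X (14.3%), and the reverse case numbered 123 (9.30%). On the autosomal arms these shares were 14.1% to 17.1% and 11.7% to 16.9%.

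How often an X cluster was found again depended on its length and on the direction of the question. In replicate 1, 48.6% of X clusters under 2 kb touched a replicate 2 cluster (95% Wilson interval 43.7 to 53.5), against 64.5% of autosomal ones (61.7 to 67.2). At 2 to 3 kb the shares were 75.1% on X (70.3 to 79.3) and 86.8% on the autosomal arms (84.8 to 88.6). At 3 to 5 kb they were 87.0% (82.7 to 90.3) and 95.8% (94.5 to 96.9). From replicate 2 the order was the opposite in the short classes. Under 2 kb, 69.1% of X clusters touched replicate 1 (64.7 to 73.2), against 54.5% of autosomal ones (51.9 to 57.2), and at 2 to 3 kb 90.1% (86.7 to 92.6) against 80.8% (78.5 to 83.0).

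All 64 clusters of 10 kb or more of replicate 1 and all 33 of replicate 2 were found in the other list. The intervals cover counting error over clusters only. A longer cluster can meet the limit of 1 bp more easily by its length alone, so some rise with length is set by the rule. How much of the rise this makes up was not tested. The list that was searched covered 19.9% of X in replicate 2 and 23.4% in replicate 1, against 29.7% and 28.6% of the autosomal arms, and the part of this in the shares was not tested. The 3 equal parts of X gave 74.3% to 74.8% in replicate 1 and 84.2% to 85.9% in replicate 2.

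**Figure D5:**
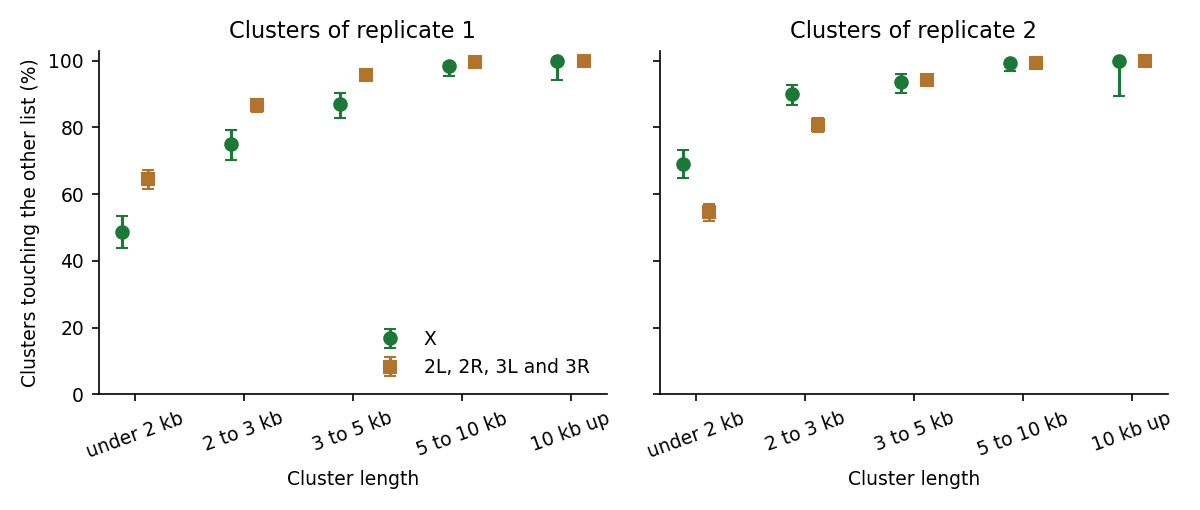
Share of clusters (%) that touch a cluster of the other list by at least 1 bp, by cluster length, for X and for 2L, 2R, 3L and 3R together, with 95% Wilson intervals as bars. Under 2 kb X lies below the autosomal arms for clusters of replicate 1 (48.6% against 64.5%) and above them for those of replicate 2 (69.1% against 54.5%).

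Clusters of 1 list without a base in the other were short, and most were within 5 kb of a cluster of the other list. Such closeness was common on X. Within a list, 810 of 1315 gaps between neighbouring clusters in replicate 1 and 825 of 1321 in replicate 2 were under 5 kb. Those counts look to 1 side of a cluster only, so they are not a like measure. Replicate 1 had 335 on X, with a median length of 1848 bp against 3159 bp for the shared ones, and 206 (61.5%) were within 5 kb of a replicate 2 cluster. Replicate 2 had 197, with medians of 1695 and 2605 bp, and 135 (68.5%) were within 5 kb. At least 20 kb from any cluster of the other list were 28 of replicate 1 and 11 of replicate 2. In the replicate-set list 308 of the 335 (91.9%) and 165 of the 197 (83.8%) were found again, but that list is not independent of the others.

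The unshared clusters with the highest scores were named one by one. In replicate 1 they ran from 19921646 to 19922998 (1353 bp; score 2.06), from 10809416 to 10813132 (3717 bp; 1.95) and from 7934238 to 7938504 (4267 bp; 1.65). Their nearest replicate 2 clusters were 11091, 4391 and 5142 bp away. In replicate 2 they ran from 17688665 to 17690183 (1519 bp; 1.64), from 14711417 to 14713676 (2260 bp; 1.61) and from 17136078 to 17138215 (2138 bp; 1.58). Their nearest replicate 1 clusters were 25873, 4140 and 41732 bp away. The first of replicate 1 and the third of replicate 2 were also missing from the replicate-set list.

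Scores of matched clusters were correlated between replicates in the long classes and not in the short ones. Over 981 best-overlapping pairs on X Spearman's rho between the replicates' scores was 0.39, against 0.57 on 2L to 0.69 on 3R. Over the 906 mutual pairs it was 0.44 on X, against 0.71 on 2L to 0.76 on 3R. Sorted by the shorter cluster of a pair, rho on X was -0.17 under 2 kb (295 pairs), 0.08 at 2 to 3 kb (281), 0.34 at 3 to 5 kb (188), 0.49 at 5 to 10 kb (116) and 0.70 at 10 kb or more (26). The autosomal arms gave -0.27 to -0.18 under 2 kb and 0.71 to 0.78 at 10 kb or more, and only on 2L did rho climb at every step as on X. At 3 to 5 kb they gave 0.49 to 0.70, above the 0.34 of X. Pairs under 3 kb made up 576 of the 906 on X. Sorted in this way, the ranking of short X pairs by score did not repeat between the libraries, and the ranking of long ones did in part. Score went with length in each list, so sorting by the shorter cluster may itself change rho within a class. That effect was not tested. The differences in rho between arms were not tested.

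The overlap of the lists was uneven along X. Shared over joint sequence, the Jaccard index, was 0.597 on X. Over windows it ran between 0.275, in the poor window from 20500001 to 21000000, and 0.828, with a median of 0.589. The 3 equal parts of X had 0.614 at the tip, 0.590 in the middle and 0.588 next to the centromere. The autosomal arms had window medians of 0.712 on 2L to 0.753 on 3R.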

How the data were processed

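H4K20me1 was measured by ChIP sequencing in head nuclei (2 ChIP libraries, 2 inputs). The submitters' processing notes name Bowtie 0.12.7. What the authors deposited are cluster lists in GFF3 on FlyBase release 5, per the file headers, with 1 score per cluster. The scale of that deposited score, the caller, its threshold, filters and depth are not given in the sources used here, so scores were never turned into folds. Where the replicates' scores are set side by side or compared pair by pair, a common scale is assumed and not known.

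From the lists of the 2 ChIP replicates the X clusters were read as intervals, their common bases were taken and touching pieces were joined. Coverage used full 500-kb windows from the tip, and gaps were the bases between neighbours, with chromosome ends left out. X was also divided into 3 parts of equal length. A cluster was paired with the one of the other list that overlapped it most, and an overlap of 1 bp counted as shared. Named regions are the 8 longest stretches, the 8 with the highest lower score, the 5 longest gaps, the 3 top unshared clusters of each list and the 3 highest and 3 lowest windows. Blocks, clumps and clusters named beyond this rule were chosen after their values were seen. The members and comparisons were chosen with earlier results of these data known. No test was made, since both ChIP libraries are of 1 group, and contrasts of X with the autosomal arms within the 2 libraries are given as values only. Intervals are Wilson intervals at 95%. Interval functions were tested on simulated data. The tools were numpy 2.4.6 and scipy 1.17.1 under Python 3.11.15, with matplotlib 3.10.9 for drawing. No genome or annotation of release 5 was used, so no gene or sequence is given; the RefSeq gene table is on release 6 and was not used. Alternatives were single lists, the union, the replicate-set list, the upper 50% by score, larger windows, other gap and overlap limits, and leaving out slivers or the last 2 Mb.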

Additional observations from a re-analysis of the deposited data

How the results depend on the processing

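In all, 18 results were recomputed under 78 alternatives, of which 23 moved by less than the spread between the replicates (for counts, by under 1.5 times), 54 moved by more or had no such spread to compare with, and 1 changed sign. With a single replicate list, the ranges were 19.9% to 23.4% for coverage of X, 8.09 to 9.38 points for its SD over windows, 1316 to 1322 for the count, 85 to 88 for gaps of 50 kb or more, 33 to 64 for blocks of 10 kb or more, 2551 to 2769 bp for the median gap, 28.0% to 28.8% for gaps under 1 kb, 3.90 to 4.17 for the variance over the mean, 29.9% to 34.4% for the length in the longest 10%, and -2.72 to -2.38 points for the centromere-side part of X minus the rest. In the union, coverage was 27.1%, its SD 10.2 points, the median gap 2381 bp, gaps under 1 kb 30.7%, the variance over the mean 3.47 and the centromere-side difference -2.97 points. In the replicate-set list these were 29.0%, 10.5 points, 1903 bp, 35.3%, 3.87 and -3.43 points, and the longest 10% held 37.9% of the length. In the upper 50% by score, which holds fewer clusters by construction, coverage was 9.21%, its SD 5.39 points, the count 453, the window correlation of the replicates 0.812, the median gap 12278.5 bp, gaps under 1 kb 17.5%, the variance over the mean 2.56, rho of score with length 0.419 in replicate 1 and 0.477 in replicate 2, rho between the replicates' scores 0.433, the Jaccard index 0.451, shared clusters 59.4% of replicate 1 and 64.8% of replicate 2, and the excess of replicate 1 on X 3.34 points. Windows of 1 Mb gave an SD of 5.35 points and a correlation of 0.956. Without stretches under 500 bp, the median gap was 3041 bp, gaps under 1 kb 25.7% and the variance over the mean 4.42. Gaps of 100 kb or more numbered 46, and 44.8% of gaps were under 2 kb. With clusters of 2 kb or more, rho of score with length was 0.551 and 0.489, and the excess of replicate 1 was 3.96 points. Without the last 2 Mb that excess was 3.68 points and the centromere-side difference turned to 0.217 points, so that difference rested on those bases. Pairs overlapping by 50% of both gave a score rho of 0.518 and mutual best pairs 0.437. The Jaccard index was 0.611 with clusters under 1 kb apart merged. When 50% of a cluster had to overlap, 65.7% of replicate 1 was shared, and when 50% of both had to, 52.4% of replicate 1 and 52.1% of replicate 2. Elsewhere the cause was not tested. Mutual pairs and all alternatives for the excess of replicate 1, for the blocks and for the centromere-side difference were added after the data were seen. Depth is unknown, so how it limits short clusters cannot be said. No paired analysis was possible because no result comes from a test and no cluster list of an input was analysed here.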

Other observations

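Neighbouring clusters on X had weakly related scores. Spearman's rho between a cluster's score and that of the next was 0.10 in replicate 1 and 0.12 in replicate 2. For neighbours under 5 kb apart it was 0.14 (810 pairs) and 0.18 (825 pairs), and for those at least 20 kb apart it was -0.003 and -0.002 (189 pairs in each list). These are weak correlations over clusters of the same library and carry no p.

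The distance of long stretches to long gaps had no single direction. Of the 30 stretches of 10 kb or more, 7 (23.3%) were within 100 kb of a gap of at least 100 kb in the union of the lists, against 396 of 1221 shorter ones (32.4%). The median distance was 212102 bp for the long stretches and 179698 bp for the shorter ones. For the 8 longest stretches it was 150860 bp, with 3 of 8 (37.5%) within 100 kb. This comparison was chosen after the values were seen and was not tested.

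At the scale of 100 kb, 33 of 224 windows on X (14.7%) held no sequence of both lists, against 12.1% on the autosomal arms, from 8.60% on 3R to 15.5% on 3L. The fullest such window on X was marked over 76.7% in both lists, against 75.3% on 2L and 99.3% on 3L.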
